A study of Rattus norvegicus with 6 samples.

Results

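Neurotrophins are secreted growth factors that neurons and glia use to control survival, dendrite growth and synaptic strength. Each is made as a proneurotrophin that is cleaved to its mature form. Mature neurotrophins bind Trk receptor tyrosine kinases, and all forms can bind the p75 receptor Ngfr, which together with sortilin binds the uncleaved proneurotrophins. In the amygdala, Bdnf acting on TrkB is known for its part in fear learning and in anxiety-related behavior. The genes described here are the ligands Bdnf and Ntf3 (neurotrophin-3), the Trk receptors Ntrk2 (TrkB, the receptor of Bdnf) and Ntrk3 (TrkC, the receptor of Ntf3), the p75 receptor gene Ngfr, and Sort1 (sortilin, also a sorting receptor for Bdnf). They were taken by their rat symbols from a list, and all 6 of them were found among the 38445 genes counted.

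RNA was sequenced from the amygdala of adult male Sprague Dawley rats, labelled wild type, that had been injected intraperitoneally with saline (control) or with ethanol at 1 g/kg and killed 1 h later. Each library was made from the pooled RNA of 2 rats. The 6 rats of a group therefore gave 3 libraries, and p-values measure the spread between pools. The study dissected the central, medial and basolateral nuclei together, and it asked which genes change in the amygdala while ethanol reduces anxiety-like behavior. Levels are given as CPM, read counts scaled to the size of each library (TMM), and differences as log2 fold changes of ethanol over control with their standard error (SE).

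The 6 libraries held 62576504 to 70755739 counted reads each. At this depth 3 counts, the floor used for a count of 0, correspond to 0.0424 to 0.0479 CPM, and that floor covers counting error only. Markers of pallial glutamatergic neurons (8 genes, Slc17a7 and Tbr1 among them) summed to 840 to 1511 CPM in controls and 873 to 1644 CPM after ethanol, and none was at 0 in any library. In 2 libraries, control 1 and ethanol 3, the 6 markers of cholinergic neurons summed to 41.8 and 24.6 CPM, while the other libraries lay between 7.07 and 10.3 CPM. The sums of 3 marker lists did not overlap between the groups. The 8 choroid plexus markers summed to 514, 1115 and 885 CPM in controls and to 11.7, 13.3 and 478 CPM after ethanol, with Otx2 at 0 or 1 count in every library. Ttr alone was at 461, 995 and 817 CPM in controls and at 5.42, 4.34 and 425 CPM after ethanol. Of the 7 that were tested, 3 had an unadjusted p below 0.05 and were lower after ethanol (edgeR), against 2.57% of all genes. Groups did not overlap for 3 of the 7, with ethanol lower (5.19% of all genes), and 0 of the 7 had an adjusted p below 0.2. The 6 tested markers of ependyma and motile cilia summed to 38.5, 53.3 and 48.8 CPM in controls and to 29.6, 32.1 and 34.5 CPM after ethanol. Of these, 5 had an unadjusted p below 0.05 and were lower after ethanol (edgeR), against 2.57% of all genes. Groups did not overlap for 4 of the 6, with ethanol lower (5.19% of all genes), and 0 of the 6 had an adjusted p below 0.2. The 5 markers of oligodendrocyte precursors summed to 238 to 245 CPM in controls and to 246 to 258 CPM after ethanol, so their sums barely missed each other. The groups overlapped for each of the 5 markers. Of the 5, 0 had an unadjusted p below 0.05 (edgeR), against 4.15% of all genes. Whether what these marker sums reflect had a part in the values of the neurotrophin genes was not tested. In bulk tissue, fewer cells of a type and less RNA per cell cannot be told apart.

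The sequence just before a start is shown for Bdnf, Ntf3 and Sort1, the 3 genes with an entry among the promoter sequences used. These are the 250 bases upstream of a RefSeq transcript start in the GRCr8 build, 5′ to 3′ on the gene's strand, while all gene positions given with the counts are those of Rnor_6.0. The Bdnf start is number 4 of 6 in the table (chr3:116637608-116637857, plus strand), the Ntf3 start number 1 of 3 (chr4:160670624-160670873, minus strand) and the Sort1 start the only one (chr2:198612245-198612494, plus strand). Capitals mark matches to the CRE half-site TGACG on either strand, the letters that the transcription factor CREB is known to bind.
Bdnf: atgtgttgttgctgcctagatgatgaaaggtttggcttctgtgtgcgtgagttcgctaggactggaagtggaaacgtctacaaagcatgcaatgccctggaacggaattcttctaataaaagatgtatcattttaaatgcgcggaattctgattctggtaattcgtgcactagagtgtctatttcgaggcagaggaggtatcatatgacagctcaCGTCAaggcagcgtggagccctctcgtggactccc
Ntf3: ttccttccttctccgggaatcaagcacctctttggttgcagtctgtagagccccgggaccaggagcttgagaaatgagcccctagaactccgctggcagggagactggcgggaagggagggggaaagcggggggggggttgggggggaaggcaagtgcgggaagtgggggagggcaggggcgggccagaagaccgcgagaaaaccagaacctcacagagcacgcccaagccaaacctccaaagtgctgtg
Sort1: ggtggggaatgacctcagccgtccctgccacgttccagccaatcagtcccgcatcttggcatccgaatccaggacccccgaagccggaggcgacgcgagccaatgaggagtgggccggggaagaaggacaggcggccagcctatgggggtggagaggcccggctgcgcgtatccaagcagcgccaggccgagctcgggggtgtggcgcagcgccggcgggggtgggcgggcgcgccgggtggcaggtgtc

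The Bdnf sequence held 1 half-site, on the opposite strand, beginning 35 bases before the start. The other 5 Bdnf windows, the 3 of Ntf3 and the 1 of Sort1 held none, against 18.2% of all 33469 windows in the table with at least 1. The full element TGACGTCA, which contains 2 overlapping half-sites, was in 1.59% of all windows and the E-box CACGTG in 5.59%, and the windows of these 3 genes held neither. A match is only a run of letters, and a window without one says nothing about CREB. Because Bdnf is transcribed from several starts and the deposited counts sum over all exons of a gene, the values below cannot be split by start or by splice form. No promoter is printed for Ntrk2, Ntrk3 or Ngfr.

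None of the 6 genes passed the test between ethanol and control rats. By edgeR's quasi-likelihood test, 0 of 6 had an adjusted p below 0.2, the threshold the study used, and 0 of 6 had an unadjusted p below 0.05. Over all 18141 genes tested, 0% passed the first threshold (smallest adjusted p 0.818) and 4.15%, or 752 genes, the second. The study itself reported genes that passed 0.2, with a test that its main text does not describe. For genes it selected, it found similar changes by qPCR. For none of the 6 did the 3 ethanol libraries all lie on the same side of the 3 controls, which was so for 8.85% of all genes (3.66% with ethanol higher and 5.19% with ethanol lower). Other tests called more genes. An adjusted p below 0.2 was reached by 77 of 18141 genes by edgeR's likelihood ratio test, 81 of 27719 by DESeq2 and 0 of 18141 by limma-voom. Of the 6 genes, 0 reached it by any of these tests. Their log2 fold changes lay between -0.50 and 0.14 with a median of 0.02, against a median of 0.0064 over all genes tested. Of the 6, 3 were above 0 and 3 below, while 52.6% of all genes were above 0.

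Bdnf (NCBI gene 24225) is on the plus strand of chromosome 3 (Rnor_6.0, bases 100768637 to 100819216), in 10 merged exon blocks. Its level was 24.5, 30.0 and 26.7 CPM in control libraries 1, 2 and 3 and 29.9, 32.4 and 18.8 CPM in ethanol libraries 1, 2 and 3. Ethanol 2 was the highest and ethanol 3 the lowest of all 6, so the controls fell inside the range of the ethanol group. The control mean was 27.1 ± 2.81 CPM and the ethanol mean 27.1 ± 7.25 CPM (SD, n = 3 each). The log2 fold change was -0.0014 (SE 0.19, 95% interval -0.44 to 0.44, adjusted p = 1.0 by edgeR), and a 2-sided exact permutation test over the libraries gave p = 0.9, where 3 against 3 cannot go below 0.1. Without ethanol 3, the log2 fold change was 0.20, and without control 2 it was 0.08.

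Ntf3 (NCBI gene 81737, chromosome 4 from 158636883 to 158705886, minus strand, 4 merged exon blocks) was the scarcer ligand. It was counted at 116, 251 and 203 reads in the controls and at 156, 285 and 141 reads after ethanol. That is 1.77, 3.53 and 3.20 CPM in the controls and 2.43, 4.43 and 2.02 CPM after ethanol. Control 1 was the lowest and ethanol 2 the highest, and the groups overlapped. Means of 2.84 ± 0.935 CPM in controls and 2.96 ± 1.29 CPM after ethanol (SD, n = 3 each) gave a log2 fold change of 0.06 (SE 0.35, 95% interval -0.74 to 0.86, adjusted p = 1.0 by edgeR). It was -0.20 without control 1 and -0.35 without ethanol 2.

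Ntrk2 (NCBI gene 25054, chromosome 17 from 5934651 to 6245778, minus strand, 23 merged exon blocks) encodes TrkB. A full-length form carries the kinase and a truncated form without it is the main form in astrocytes, and the counts hold both. The level was 1091, 1082 and 1155 CPM in the controls and 1148, 1019 and 1280 CPM after ethanol. Here the order was turned round, with ethanol 2 the lowest and ethanol 3 the highest library. The log2 fold change was 0.05 (SE 0.10, 95% interval -0.19 to 0.29, adjusted p = 1.0 by edgeR). The means were 1109 ± 40.0 and 1149 ± 130.3 CPM (SD, n = 3 each). Without ethanol 3 the log2 fold change was -0.03. A second gene annotated within the Ntrk2 locus on the same strand shared 0 exon bases with it and had at most 3 counts in any library.

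Ntrk3 (NCBI gene 29613, chromosome 1 from 139890537 to 140262503, minus strand, 21 merged exon blocks) encodes TrkC and was the steadiest of the 6. It was at 122.1, 142.1 and 123.0 CPM in the controls and at 127.6, 133.0 and 116.8 CPM after ethanol, with the highest library a control and the lowest an ethanol one. The log2 fold change was -0.04 (SE 0.08, 95% interval -0.23 to 0.15, adjusted p = 1.0 by edgeR), which was the narrowest interval among the 6. It was 0.04 without control 2 and 0.01 without ethanol 3.

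Ngfr (NCBI gene 24596, chromosome 10 from 83389828 to 83408061, minus strand, 8 merged exon blocks) is a member of the tumor necrosis factor receptor family. In the adult basal forebrain it is known as a marker of cholinergic neurons. Its counts were 663, 175 and 262 in the controls and 175, 180 and 437 after ethanol. In CPM these are 10.1, 2.46 and 4.13 in the controls and 2.73, 2.80 and 6.28 after ethanol. Control 1 and ethanol 3 stood above the other 4 libraries, 1 from each group. Means of 5.58 ± 4.04 CPM in controls and 3.93 ± 2.03 CPM after ethanol (SD, n = 3 each) gave the largest log2 fold change of the 6 in size, -0.50 (SE 0.53, 95% interval -1.73 to 0.73, adjusted p = 1.0 by edgeR). Without control 1 the sign turned, to 0.25, and differences within that interval could not be resolved with these libraries.

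Sort1 (NCBI gene 83576, chromosome 2 from 211078092 to 211156312, plus strand, 21 merged exon blocks) was at 494.8, 605.6 and 528.9 CPM in the controls and at 607.5, 685.8 and 503.9 CPM after ethanol. Ethanol 1 and 2 were above every control, and ethanol 3 was below 2 of them. The log2 fold change was 0.14 (SE 0.13, 95% interval -0.16 to 0.44, adjusted p = 1.0 by edgeR). The means were 543.1 ± 56.7 and 599.0 ± 91.2 CPM (SD, n = 3 each). The log2 fold change stayed above 0 with each library left out in turn, between 0.03 and 0.25. It never passed the threshold on the adjusted p.

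**Figure D1:**
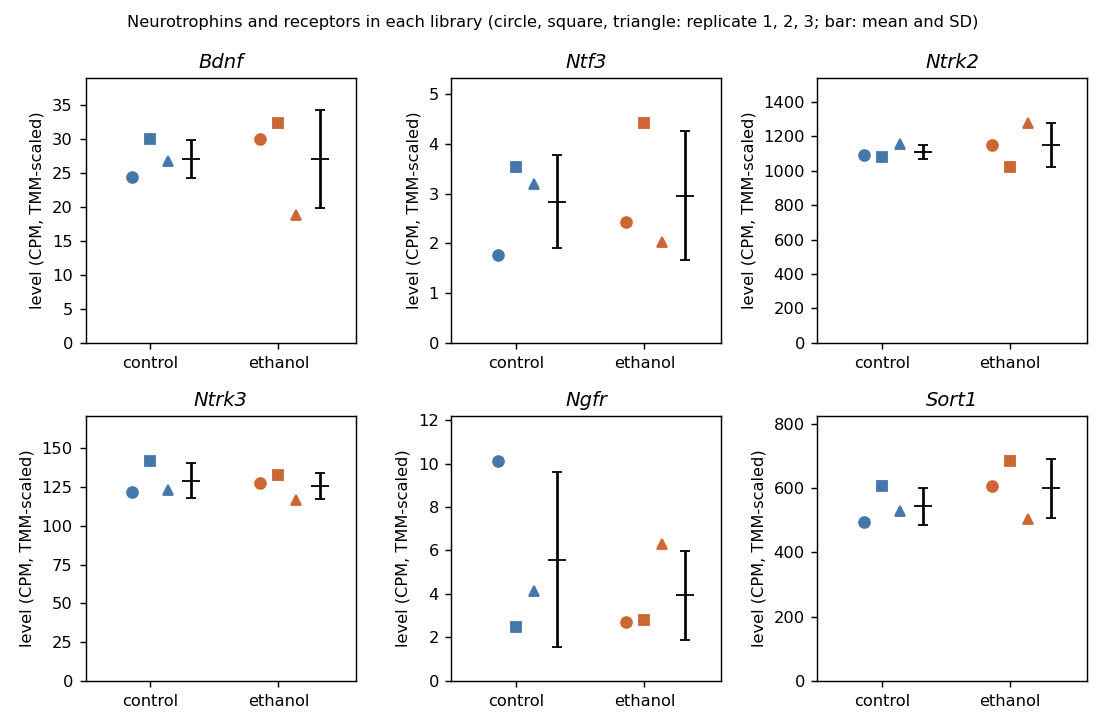
Level of each of the 6 genes in CPM (TMM-scaled, axis from 0) in the 3 control (blue) and 3 ethanol (orange) libraries, with the mean and SD of each group as a black bar. The groups overlap for every gene: ethanol 3 is the lowest library for Bdnf at 18.8 CPM and control 1 the highest for Ngfr at 10.1 CPM.

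**Figure D2:**
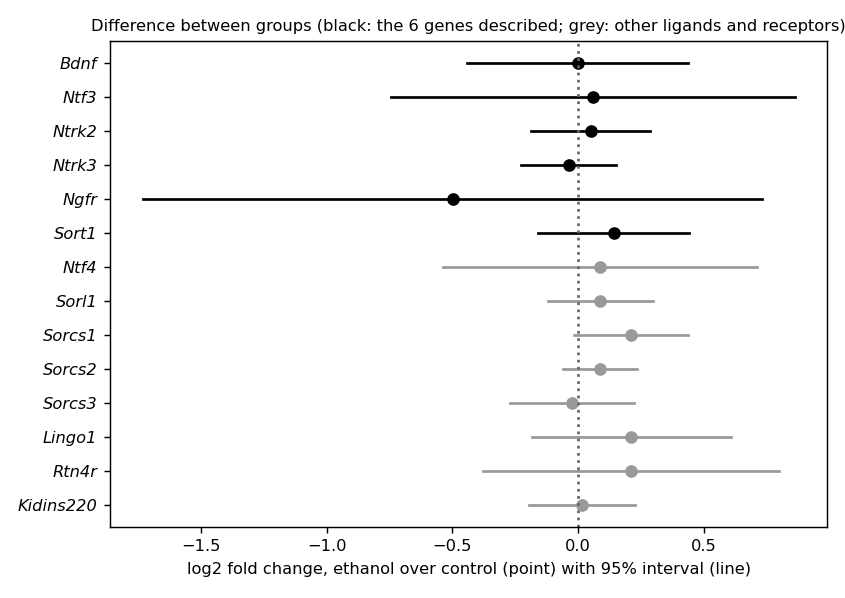
Log2 fold change of ethanol over control (points) with its 95% interval (lines) for the 6 genes in black and for 8 other ligands, receptors and co-receptors in grey. Every interval includes 0. It is narrowest among the 6 for Ntrk3, from -0.23 to 0.15, and widest for Ngfr, from -1.73 to 0.73.

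To compare levels between genes, CPM was divided by the merged exon length in kb. Sort1 and Ntrk2 were the most abundant, with per-length levels of 81.2 ± 10.6 and 71.3 ± 5.61 CPM per kb (SD over n = 6 libraries). Their ranges overlapped, and Sort1 was above Ntrk2 in 5 of 6 libraries, the exception being ethanol 3. The per-length level of Ntrk2 rests on 15840 annotated exon bases, which pool all annotated forms, so its place in the order depends on the annotation. Ntrk3 followed at 25.4 ± 1.80 CPM per kb (SD, n = 6), below Ntrk2 in all 6 libraries, and the per-length ratio of Ntrk2 to Ntrk3 ran from 2.42 to 3.48. Both ligands were below Ntrk2, Ntrk3 and Sort1 in every library. Bdnf was at 4.25 ± 0.771 CPM per kb (SD, n = 6), and the ratio of Ntrk2 to Bdnf ran from 12.7 in ethanol 2 to 27.4 in ethanol 3. Ntf3 and Ngfr came last, at 1.63 ± 0.568 and 1.34 ± 0.841 CPM per kb (SD, n = 6). Their ranges overlapped, and Ntf3 was the higher in 4 of 6 libraries, which were all but control 1 and ethanol 3.

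Bdnf was above Ntf3 in all 6 libraries, and their per-length ranges did not overlap. Ntf4, another TrkB ligand, lay below all 6 genes, at 0.214 ± 0.0344 CPM per kb (SD, n = 6).

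**Figure D3:**
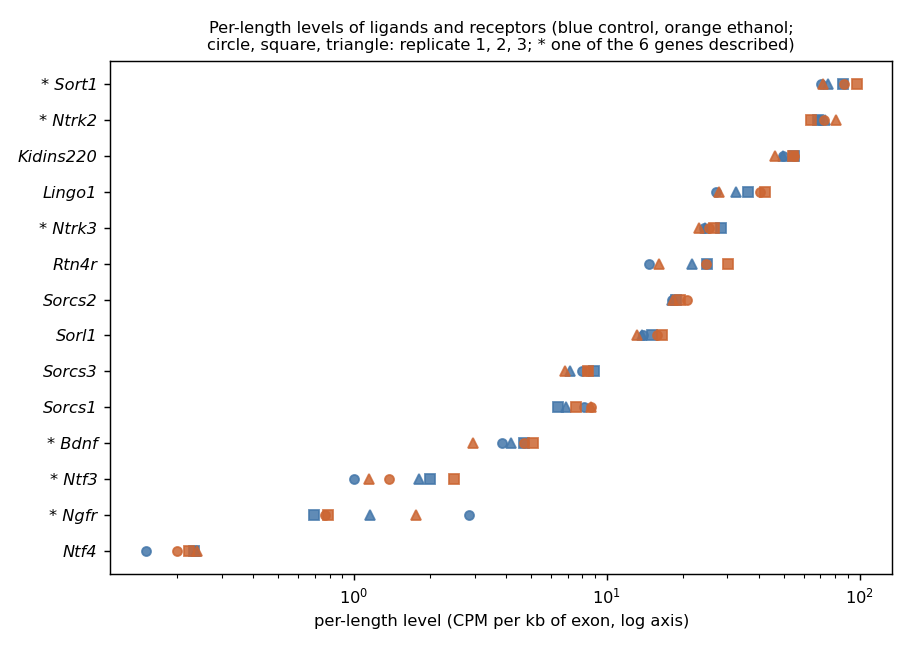
Per-length level in CPM per kb of exon on a log axis for the 6 genes (starred) and 8 other ligands, receptors and co-receptors, one point per library (blue control, orange ethanol). Sort1 and Ntrk2 lie at the top near 81.2 and 71.3 CPM per kb, the ligands Bdnf and Ntf3 between 1.0 and 5.08 CPM per kb, and Ngfr has the widest spread between libraries.

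The 6 genes differed in how much they varied between libraries. The highest library was 1.72 times the lowest for Bdnf and 4.12 times for Ngfr, against 1.39 times for Sort1, 1.26 for Ntrk2 and 1.22 for Ntrk3. The coefficient of variation over the 6 libraries was 34.8% for Ntf3 and 63.0% for Ngfr, while counting error at their lowest counts was 9.28% and 7.56%. Ranked by the SD of log2 CPM among all genes tested, Ngfr was at percentile 98.8, Ntf3 at 94.4, Bdnf at 79.6 and Sort1 at 63.8. Ntrk2 and Ntrk3, at percentiles 40.2 and 34.6, were less variable than the median gene.

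These differences had a shared pattern. As a description over the same 6 libraries, with no test, log2 CPM of Bdnf had a Pearson correlation of 0.83 with Sort1, 0.81 with Ntrk3 and 0.73 with Ntf3. It had one of -0.84 with Ntrk2 and of -0.74 with Ngfr. Sort1 and Ngfr correlated by -0.86, and Ntf3 and Ngfr by -0.80. Control 1 and ethanol 3 were the lowest libraries for Bdnf, Ntf3, Ntrk3 and Sort1, and the highest for Ngfr. Ethanol 2 was the highest for Bdnf, Ntf3 and Sort1, and control 2 for Ntrk3. All these values share the same libraries and their composition, so the correlations are not independent of each other.

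Markers of cell types moved with the same libraries. The 8 markers of pallial glutamatergic neurons, the cells in which Bdnf is mostly made, summed to 1511 CPM in control 2 and 1644 CPM in ethanol 2, and to 840 and 873 CPM in control 1 and ethanol 3. Of these 8 markers, 1 had an unadjusted p below 0.05 between the groups (edgeR) and was higher after ethanol, against 1.57% of all genes. Over the 6 libraries, the log2 of this sum correlated by 0.87 with Bdnf, 0.91 with Ntf3, 0.86 with Ntrk3, 0.95 with Sort1, -0.65 with Ntrk2 and -0.93 with Ngfr. The summed cholinergic markers, among them Chat at 7.95 CPM in control 1 and 0.25 CPM in control 2, correlated by 0.97 with Ngfr. All 6 of these markers were above 0 in every library. As for Ngfr itself, 0 of the 6 had an unadjusted p below 0.05 between the groups (edgeR), against 4.15% of all genes. The 8 astrocyte markers summed to 4198 to 4942 CPM in controls and to 4267, 4295 and 5529 CPM after ethanol. Their sum correlated with the 6 genes by -0.81 (Bdnf) to 0.87 (Ntrk2). Of these 8 markers of astrocytes, 1 had an unadjusted p below 0.05 (edgeR) and was lower after ethanol, against 2.57% of all genes. Ntrk2 was also the highest of the 6 for 2 other sums. Correlations ran from -0.67 (Ntrk3) to 0.81 (Ntrk2) for microglia and from -0.86 (Ntf3) to 0.64 (Ntrk2) for striatal-type GABA neurons. The 8 oligodendrocyte markers ranged from 3750 CPM in control 2 to 10129 CPM in ethanol 3 and correlated by 0.85 with Ngfr and by -0.79 with Bdnf. The sums that did not overlap between the groups correlated with the 6 genes by -0.69 (Sort1) to 0.43 (Ngfr) for choroid plexus, by -0.23 (Sort1) to 0.35 (Ntrk3) for ependyma and by -0.69 (Ngfr) to 0.61 (Sort1) for oligodendrocyte precursors. The part of these cell types in the levels of the neurotrophin genes was not tested.

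**Figure D4:**
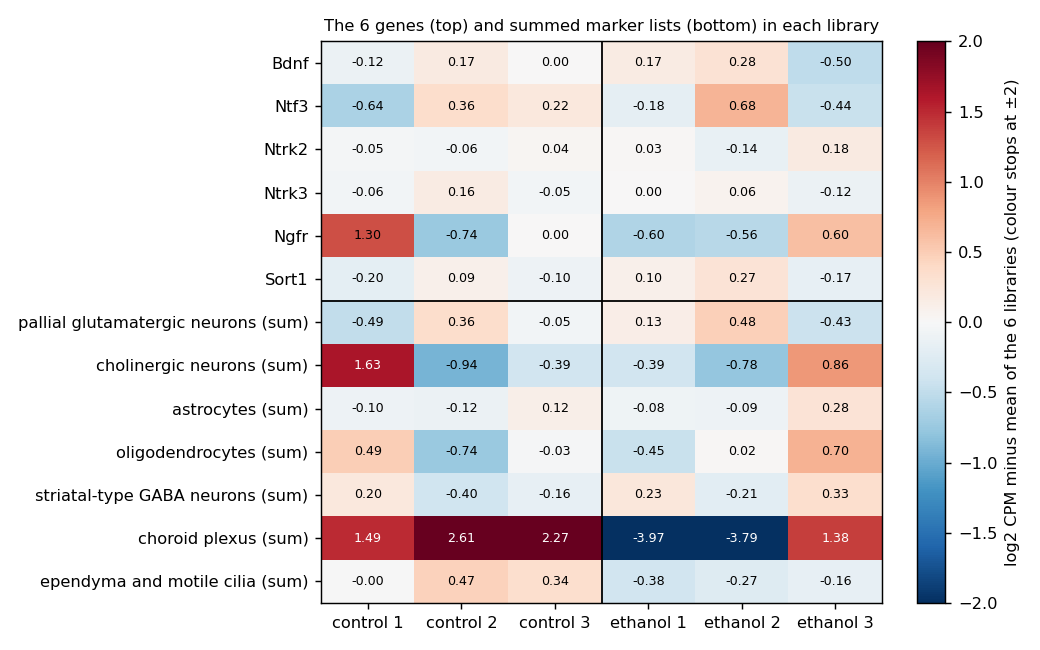
Log2 CPM minus the mean of the 6 libraries for the 6 genes (top rows) and for summed marker lists (bottom rows), one column per library. Control 1 and ethanol 3, from different groups, share high Ngfr (0.60 in ethanol 3) with high cholinergic sums (1.63 and 0.86), and ethanol 3 has the lowest Bdnf (-0.50).

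Leaving out control 1 and ethanol 3 together, the library with the highest cholinergic sum in each group, left 2 libraries on each side, a choice made after the data were seen. The log2 fold changes were then 0.13 for Bdnf, 0.02 for Ntf3, -0.05 for Ntrk2, -0.03 for Ntrk3, -0.26 for Ngfr and 0.18 for Sort1. By edgeR's test 0 of the 6 had an adjusted p below 0.2, against 87 of all 18182 genes tested.

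The genes whose log2 CPM followed each of the 6 most closely over the 6 libraries were found among 13781 named genes of at least 1 CPM, by Pearson's r. With so many genes and 6 points, the best matches are close by selection. For Bdnf they were Neurod6 (r = 0.998, a transcription factor of glutamatergic neurons), Cd2bp2 (r = 0.995) and Lpl (r = 0.994, lipoprotein lipase). Neurod6 was highest in ethanol 2 at 55.7 CPM and lowest in ethanol 3, and its order of libraries was that of Bdnf (Spearman's rho 1.0). For Ntf3 they were Fmnl1 (r = 0.998), Copz1 (r = 0.998) and Trim35 (r = 0.990). For Ntrk2 they were Csf3r (r = 0.99), Adcyap1r1 (r = 0.99, the receptor of the neuropeptide PACAP) and Acp6 (r = 0.98). For Ntrk3 they were Sin3b, Herc1 and Gabrb1 (r = 0.99 for each), the last a GABA-A receptor subunit. For Ngfr they were Tmem186, Tcf7l2 and Mkrn2 (r = 0.997 for each). Of these, Tcf7l2, a transcription factor of the Wnt pathway, ranged from 9.12 CPM in control 2 to 18.5 CPM in control 1. For Sort1 they were Pom121 (r = 0.997), Gprin1 (r = 0.997) and Rnf19a (r = 0.996).

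Genes around the neurotrophins were read from 5 lists. Of 8 other ligands, receptors and co-receptors, all tested, 0 had an unadjusted p below 0.05 (edgeR), against 4.15% of all genes. The median log2 fold change of the 8 was 0.09. The most abundant per length were Kidins220, a scaffold that Trk receptors phosphorylate, and Lingo1, a co-receptor of p75. Their log2 fold changes were 0.02 (SE 0.09) and 0.21 (SE 0.17), with an adjusted p of 1.0 for each by edgeR.

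Of 16 genes that cleave, sort or release proneurotrophins, 15 were tested, Mmp7 having 0 counts in every library. Of the 15, 0 had an unadjusted p below 0.05 (edgeR), against 4.15% of all genes, and the list's median log2 fold change was -0.04. Cpe (carboxypeptidase E, a sorting receptor for proBDNF) and Hap1 (a protein that carries proBDNF along axons) were the most abundant per length. They had log2 fold changes of -0.04 (SE 0.10) and -0.08 (SE 0.10). Of 11 effectors and proteases of p75, all tested, 0 had an unadjusted p below 0.05 (edgeR), against the same 4.15%. The most abundant, Bex3 and Ndn, differed by 0.02 (SE 0.06) and -0.07 (SE 0.08) in log2 fold change.

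Of 30 adaptors and relay proteins downstream of Trk receptors, 29 were tested, Crkl having 0 counts in every library. In this list 1 gene had an unadjusted p below 0.05 and was higher after ethanol, against 1.57% of all genes in that direction, and 0 were lower, against 2.57%. It was Shc3, a neuronal adaptor of Trk receptors, at 29.5, 27.2 and 29.8 CPM in the controls and 31.0, 31.4 and 34.3 CPM after ethanol. The groups did not overlap, but the log2 fold change of 0.16 (SE 0.07) had an adjusted p of 1.0 by edgeR. Of the 29, groups did not overlap for 3 with ethanol higher (3.66% of all genes) and for 0 with ethanol lower (5.19%). The abundant Map2k1 (the kinase MEK1) and Ptpn11 (the phosphatase SHP2) differed by 0.11 (SE 0.10) and 0.13 (SE 0.11) in log2 fold change. The list's median was 0.03.

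The 17 genes known to respond to TrkB through ERK, all tested, had the highest median of these lists, 0.16. Of the 17, 12 had a log2 fold change above 0, against 52.6% of all genes. In the other lists it was above 0 for 23 of 29 Trk adaptors and relay proteins and 7 of 8 other ligands and receptors. It was so for 7 of 11 p75 effectors and 7 of 15 processing genes. At an unadjusted p below 0.05 (edgeR), 2 of the 17 were higher after ethanol (1.57% of all genes were) and 1 was lower (2.57%). Of the 17, 0 had an adjusted p below 0.2. Egr1, an immediate early transcription factor, was at 56.4, 51.6 and 45.1 CPM in the controls and 69.6, 59.4 and 64.3 CPM after ethanol. Groups did not overlap for 1 of the 17 with ethanol higher (3.66% of all genes) and for 1 with ethanol lower (5.19%). The one with ethanol higher was Egr1, with a log2 fold change of 0.34 (SE 0.10, adjusted p = 1.0 by edgeR). Junb, an AP-1 subunit, was also higher in mean (log2 fold change 0.32, SE 0.11, adjusted p = 1.0 by edgeR), and its groups overlapped by a little, since ethanol 3 at 41.9 CPM was just below control 1 at 42.1 CPM. Spry2, a feedback inhibitor of receptor tyrosine kinase signaling, went the other way, from 55.9, 54.7 and 64.3 CPM in the controls to 53.2, 44.5 and 46.8 CPM after ethanol. Its log2 fold change was -0.28 (SE 0.09, adjusted p = 1.0 by edgeR). These are activity genes that many signals induce.

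**Figure D5:**
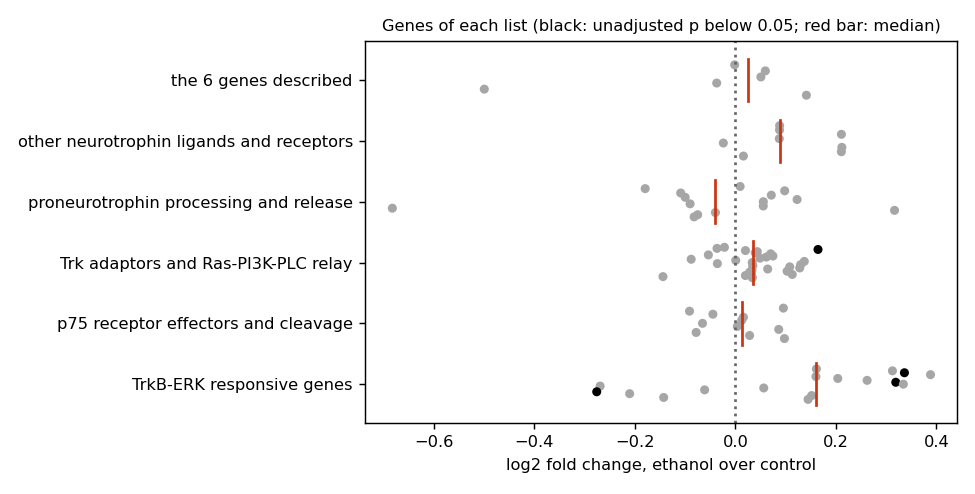
Log2 fold change of ethanol over control for each tested gene of the 6 genes described and of the 5 lists around them (points, black where the unadjusted p was below 0.05) with the median of each list as a red bar. The medians lie between -0.04 and 0.16, and the 4 black points are Shc3, Egr1, Junb and Spry2.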

How the data were processed

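Per the file headers, the labels and the submitters' processing notes, the authors aligned quality-trimmed stranded single-end reads with STAR 2.7.0f to Rnor_6.0 and counted them with featureCounts 1.6.3 over the exons of each gene (reverse-stranded setting). The deposited values are raw counts, with no normalization or filter. Reads that mapped to several places or to several genes are not in them, which lowers genes with near-identical copies. Gene lengths were copied from the same files. Symbols came from a RefSeq gene table (GRCr8), used for names only, which matched 29322 of the 38445 gene identifiers.

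The analysis used edgeR 4.0.16 under R 4.3.3: filterByExpr (minimum count 10, total 15), TMM (factors 0.976 to 1.01), the quasi-likelihood F test and Benjamini-Hochberg adjustment over 18141 genes, with the threshold of 0.2. The standard error is the absolute log2 fold change divided by the square root of F, and log2 CPM has a prior count of 2. The fit was tested on simulated data. DESeq2 1.42.0, limma 3.58.1 and other settings served as alternatives. Within groups, pairs of libraries differed beyond sampling noise (chi-square per degree of freedom 14.3 to 67.6).

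The genes described, the lists around them and the markers were chosen with earlier results of these data known. Named genes are the 6 genes, those of the pathway lists with an unadjusted p below 0.05 or among the 2 most abundant per length, and the 3 closest in pattern to each of the 6. Some genes of the first list are not reported here.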

Additional observations from a re-analysis of the deposited data

How the results depend on the processing

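At an adjusted p below 0.2, the absence of a call for the 6 genes held under all alternatives. The lowest adjusted p any of them reached was 0.55 (Sort1, without ethanol 3). In that run Sort1 had an unadjusted p of 0.043 (edgeR), and 1629 of 18356 genes had one below 0.05. An adjusted p below 0.2 was reached by 81 genes by DESeq2, by 77 by edgeR's likelihood ratio test, and by between 0 and 83 when single libraries were left out (4 without ethanol 1, 83 without ethanol 3 and 0 for the others). It was reached by 87 genes without control 1 and ethanol 3 together, an alternative chosen after seeing the data. The cause was not tested. With the replicate number as a block, 0 genes passed and 1015 had an unadjusted p below 0.05. Over 14241 genes, deviations from the group means correlated by 0.026, 0.388 and 0.211 for the numbers 1, 2 and 3. Controls 2 and 3 were each closest to the ethanol library of their own number, but control 1 was closest to ethanol 3 (0.305). These values do not settle whether the numbers pair the libraries. The block changed the sign of Neurod6 alone, to -0.13. Signs of values near 0 turned easily. Bdnf was at 0.0006 with no filter on low counts. Library size alone, which moved the median of all genes from 0.0064 to -0.020, took Kidins220 to -0.012, Bex3 to -0.010, Cd2bp2 to -0.025, Fmnl1 to -0.014, Copz1 to -0.027 and Acp6 to -0.0010. RLE size factors took Cd2bp2 to -0.0006 and Copz1 to -0.0027, DESeq2 took them to -0.0005 and -0.0027, and limma-voom took Neurod6 to -0.19. Without control 1 and ethanol 3 together, the log2 fold change was 0.13 for Bdnf, -0.054 for Ntrk2, 0.085 for Lpl, -0.0077 for Fmnl1, -0.011 for Copz1, -0.035 for Csf3r, -0.040 for Adcyap1r1 and -0.037 for Acp6. When single libraries were left out, the ranges that crossed 0 were -0.15 to 0.20 for Bdnf, -0.35 to 0.27 for Ntf3, -0.033 to 0.13 for Ntrk2, -0.084 to 0.038 for Ntrk3, -1.01 to 0.25 for Ngfr, -0.024 to 0.092 for Kidins220, -0.12 to 0.030 for Cpe, -0.14 to 0.0070 for Hap1, -0.0085 to 0.048 for Bex3, -0.38 to 0.50 for Neurod6, -0.017 to 0.035 for Cd2bp2, -0.22 to 0.20 for Lpl, -0.063 to 0.062 for Fmnl1, -0.023 to 0.013 for Copz1, -0.034 to 0.016 for Trim35, -0.021 to 0.17 for Csf3r, -0.014 to 0.12 for Adcyap1r1, -0.024 to 0.067 for Acp6, -0.058 to 0.033 for Sin3b, -0.059 to 0.032 for Herc1, -0.10 to 0.095 for Gabrb1, -0.086 to 0.017 for Tmem186 and -0.46 to 0.074 for Tcf7l2. The other named genes kept their sign throughout.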
